A study of Mus musculus with 14 samples.

Results

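The ErbB receptors, their ligands and Met were followed in 4T1 cells, a mouse mammary tumor line derived from a BALB/c mouse, in which Cnot7 had been knocked down or human CNOT7 had been added. The genes considered were 10: the receptors Egfr, Erbb2 and Erbb3, the ligands Areg, Ereg, Hbegf, Tgfa, Btc and Epgn, and the receptor Met. They were chosen by name, with earlier results of these data known. Each was read from the probe set that pairs with its symbol alone and has the highest mean. Of these, 9 had such a probe set, 1 each, among 19938 genes on 21789 single-symbol probe sets, and Areg was not analysed here. RNA of 14 samples was measured on Affymetrix Mouse Gene ST arrays.

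The 5 groups were 3 samples of cells labelled as over-expressing CNOT7, 3 of cells transduced with a control vector (vector control), 2 of cells with the Cnot7 hairpin sh74, 3 with the Cnot7 hairpin sh75 and 3 with a scrambled hairpin (shScramble). All groups were stably transduced with lentivirus and drug selected, the over-expression cells with blasticidin and the hairpin cells with puromycin. The added CNOT7 was a FLAG-tagged human cDNA driven by the murine Pol2 promoter. Cnot7 itself, a deadenylase of the CCR4-NOT complex, had log2 signals of 8.71 and 9.33 with sh74 and 7.52, 8.51 and 8.07 with sh75, against 10.44, 10.33 and 10.20 with shScramble. It had 10.64, 10.02 and 10.08 in samples labelled over-expression, against 10.07, 10.52 and 10.15 in vector control samples. The mouse probe set need not read a human cDNA, so it does not check the over-expression label. The labels do not say whether replicates were separate cultures, so each p-value covers no more than the spread among the samples at hand. Replicate numbers follow the order of the sample records and pair nothing.

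ErbB receptors are receptor tyrosine kinases that pair with each other at the cell surface and drive the Ras-MAPK and PI3K-Akt pathways. Egfr binds the ligands studied here, Erbb2 has no known ligand and acts as a shared partner, and Erbb3 has little kinase activity of its own but binds PI3K strongly and takes neuregulins as ligands. The ligands are made as membrane proteins and are released by ADAM metalloproteases. Met is the receptor for hepatocyte growth factor, which drives scattering and invasion of epithelial cells. Epithelial tumor cells can lose epithelial features and gain mesenchymal ones; here Esrp1, a splicing regulator made in epithelial cells, and Vim, the intermediate filament protein vimentin, served as readouts of that state.

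Values are RMA log2 signals, in which 1 unit is a doubling. Signals of different genes come from different probes, so only the same gene is compared between samples. The 90th percentile of 1023 olfactory receptor probe sets, genes that mammary cells should not use, was 4.90 and served as a limit below which a signal was called dim. Array medians lay between 6.31 and 6.38. All 12 mammary epithelial markers had means above the dim limit, among them the keratins Krt8 (11.13 to 11.87) and Krt18 (11.73 to 12.30). Others in that list varied more between samples, among them Epcam (5.98 to 10.01), Cldn3 (6.35 to 10.28) and Esrp1 (5.21 to 11.01). Of 9 mesenchymal markers 8 were above the limit, and Cdh2 was not (4.02 to 4.22). Vim was at 10.08 to 13.06 and Zeb1 at 5.24 to 5.57. Of 5 immune markers 1 was above the dim limit, Cd3e (5.68 to 6.04), and Ptprc, the leukocyte marker CD45, was at 4.49 to 4.73. Of 3 endothelial and 3 adipocyte markers, 2 in each list were above the limit, among them Cdh5 (5.08 to 5.32) and Plin1 (5.47 to 5.82). The means over these lists stayed at 4.90 to 5.07 and 4.89 to 5.06. Of 4 fibroblast markers 3 were above the limit, among them Pdgfra (6.83 to 9.25). All 5 basal markers were above it, among them Krt14 (5.41 to 8.25). The means over the fibroblast and basal lists were 5.90 to 6.56 and 5.65 to 6.41. The epithelial list averaged 8.44 to 10.49 and the mesenchymal list 7.21 to 8.65, and the 2 sh74 samples alone spanned the epithelial range.

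Of the 9 measured genes, 7 were above the dim limit in every sample. Epgn, which encodes epigen, was above it in 5 samples. Ereg, which encodes epiregulin, was above it in 0, at 4.64 to 4.83 over all 14 samples, so its signal gives only an upper bound and its order between samples carries nothing. Most of the variation lay inside treatment groups. The within-group SD of Erbb3 was 1.11, larger than that of 99.5% of all probe sets, and 6 of the 9 genes exceeded the 90th percentile of 0.33. The median share of a gene's variance that lay within groups was 77.9% for the 9 genes and 68.0% for all probe sets. Tgfa (46.3%) and Btc (48.7%) had the lowest within-group shares, and Hbegf (92.1%) and Erbb3 (91.1%) the highest.

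**Figure D1:**
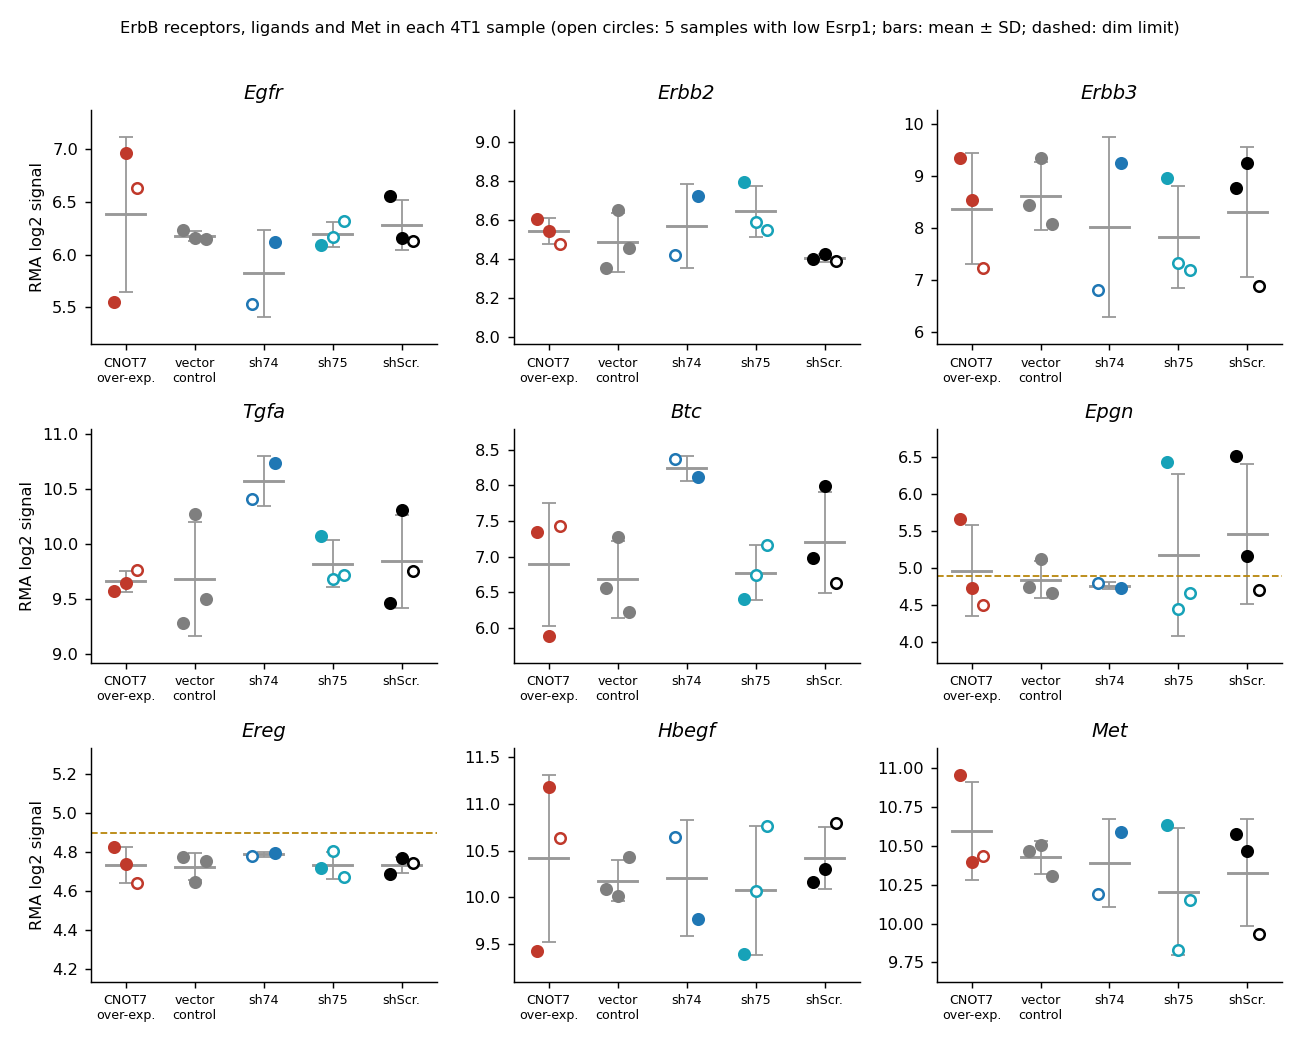
RMA log2 signal of 9 genes in each sample by treatment group, with 1 point per sample and the mean ± SD of the group. Open circles are the 5 samples with low Esrp1, which sit at the bottom of Erbb3 in every group that holds one. The dashed line is the dim limit of 4.90, and both sh74 samples lie above all sh75 and shScramble samples for Tgfa and Btc.

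None of the 9 genes was called in any comparison of treatments. The test was limma on all 14 samples in 5 groups, with Benjamini-Hochberg adjustment over all probe sets and a call at an adjusted p under 0.05. With over-expression against vector control 0 of 9 were called, where 0% of all probe sets were called. An unadjusted p under 0.05 was reached by 0 of 9, against 2.58% of all probe sets, and 0 of 9 had groups that did not overlap, against 7.72%. With sh74 against shScramble 0 of 9 were called (0.00918% of all probe sets), 1 had an unadjusted p under 0.05 (7.33%) and 4 did not overlap (22%), namely Egfr, Tgfa, Btc and the dim Ereg, whose order carries nothing. With sh75 against shScramble 0 of 9 were called (0.0918%), 1 had an unadjusted p under 0.05 (8.26%) and 1 did not overlap (13.5%). With both hairpins against shScramble 0 were called (0.0184%) and 1 had an unadjusted p under 0.05 (7.3%).

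The contrasts between treatments called none either. Between sh74 and sh75 0 of 9 were called (0.174% of all probe sets), 2 had an unadjusted p under 0.05 (8.93%) and 2 did not overlap (22.5%). The over-expression change minus the mean knockdown change called 0 of 9 (0% of all probe sets), and 0 had an unadjusted p under 0.05 (3.49%). Vector control against shScramble called 0 (0%), also with 0 at an unadjusted p under 0.05 (3.7%). The median change of the 9 genes was 0.12 with over-expression, 0.05 with sh74 and -0.12 with sh75, and over all probe sets it was 0.01, 0.00 and 0.00 in these comparisons. The hairpin comparisons share the shScramble samples.

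**Figure D2:**
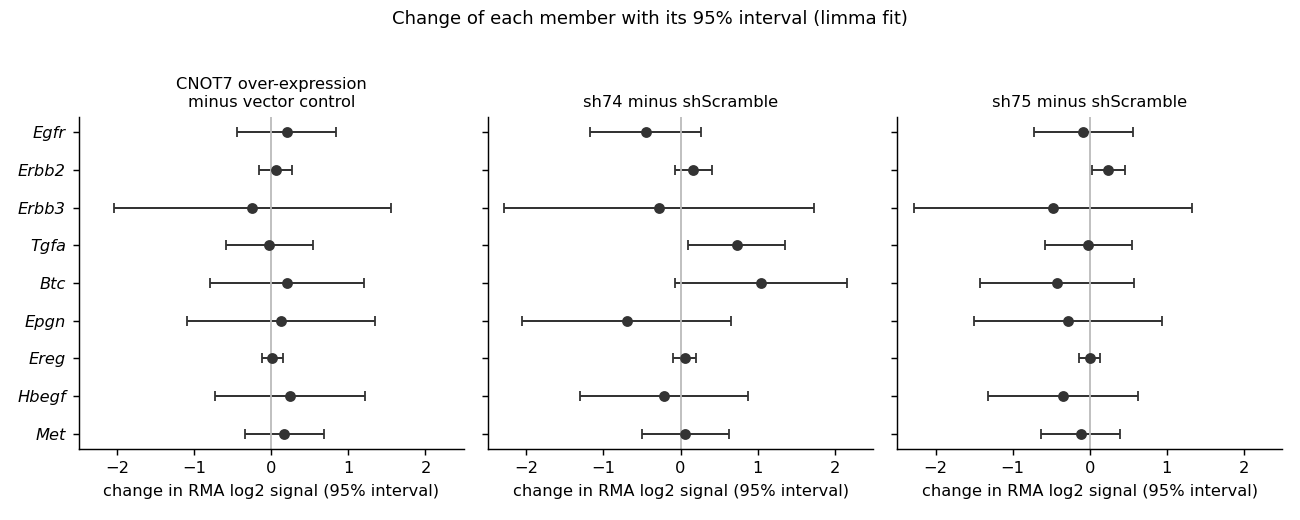
Change in RMA log2 signal of 9 genes in CNOT7 over-expression minus vector control, sh74 minus shScramble and sh75 minus shScramble; points are limma estimates and bars their 95% intervals. The intervals of Tgfa with sh74 (0.10 to 1.36) and Erbb2 with sh75 (0.02 to 0.46) lie above 0, none of the changes passed the adjusted threshold, and the intervals of Erbb3 are the widest.

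Erbb3 had the widest range of the receptors and ran with the Esrp1 level of the samples. It had 9.34, 8.55 and 7.23 in over-expression samples, against 8.43, 9.34 and 8.07 in vector control samples. It had 6.80 and 9.24 with sh74 and 8.96, 7.32 and 7.202 with sh75, against 8.78, 9.24 and 6.89 with shScramble. Every group but vector control held both high and low samples, and all groups overlapped. The change was -0.24 (SE 0.82) with over-expression, -0.28 (SE 0.92) with sh74 and -0.47 (SE 0.82) with sh75, and -0.38 (SE 0.74) over both hairpins. These standard errors do not separate any of them from 0: the 95% interval for sh75 ran from -2.27 to 1.33. With the Esrp1 level as a covariate the over-expression change was 0.37, the sh74 change 0.00 and the sh75 change -0.10. With Vim as a covariate the sh75 change was 0.34 and that of both hairpins 0.02, so no direction is given for any of them.

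Esrp1 had a gap of 3.23 units between 5 samples at 5.21 to 6.50 and 9 samples at 9.73 to 11.01. The low samples were over-expression replicate 3, sh74 replicate 1, sh75 replicates 2 and 3 and shScramble replicate 3. Because the samples fall on both sides of a gap, no pooled correlation with Esrp1 is used as a result. The slope on Esrp1 was estimated within treatment groups, but 4 of the 5 groups hold samples from both sides, so it still rests largely on the difference between the low and the high samples. Erbb3 lay at 6.80 to 7.32 in the 5 low samples and at 8.07 to 9.34 in the 9 high ones. It was the only one of the 9 genes whose values in the low samples were all under those in the high samples, 1 of 9 against 0.794% of all probe sets. For higher values in the low samples the count was 0 of 9, against 1.03%.

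In limma the Erbb3 signal was higher by 0.41 per log2 unit of Esrp1 within groups (SE 0.04, 95% interval 0.32 to 0.49, adjusted p = 0.00277). Over all samples Erbb3 ranged over 2.54 units, a 5.81-fold span. The call held in all 14 fits that left out a sample, with slopes from 0.39 to 0.43. For every slope on Esrp1 or Vim, the 2 fits without an sh74 sample are the same fit, since the remaining sh74 sample stands alone. Against Vim, the Erbb3 slope was -0.84 per log2 unit (SE 0.15, adjusted p = 0.0609), which missed the threshold. It passed in 3 of 14 fits that left out a sample, those without vector control replicate 1 (adjusted p = 0.0476), vector control replicate 2 (adjusted p = 0.0370) and shScramble replicate 1 (adjusted p = 0.0422). Fewer epithelial cells in a sample and less Erbb3 RNA per cell cannot be told apart in these bulk measurements.

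The 9 Esrp1-high samples were not alike for Erbb3 either. In 3 of them, vector control replicates 1 and 3 and over-expression replicate 2, the tight junction gene Cldn7 was low (5.98 to 7.84, against 10.08 to 10.92 in the other 6), and Erbb3 was 8.07 to 8.55 there and 8.78 to 9.34 in the other 6. Met also did not overlap between those samples, at 10.30 to 10.466 and 10.470 to 10.96. This division was made after values were seen, is given without a test, and 5.81% of all probe sets did not overlap across it.

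**Figure D3:**
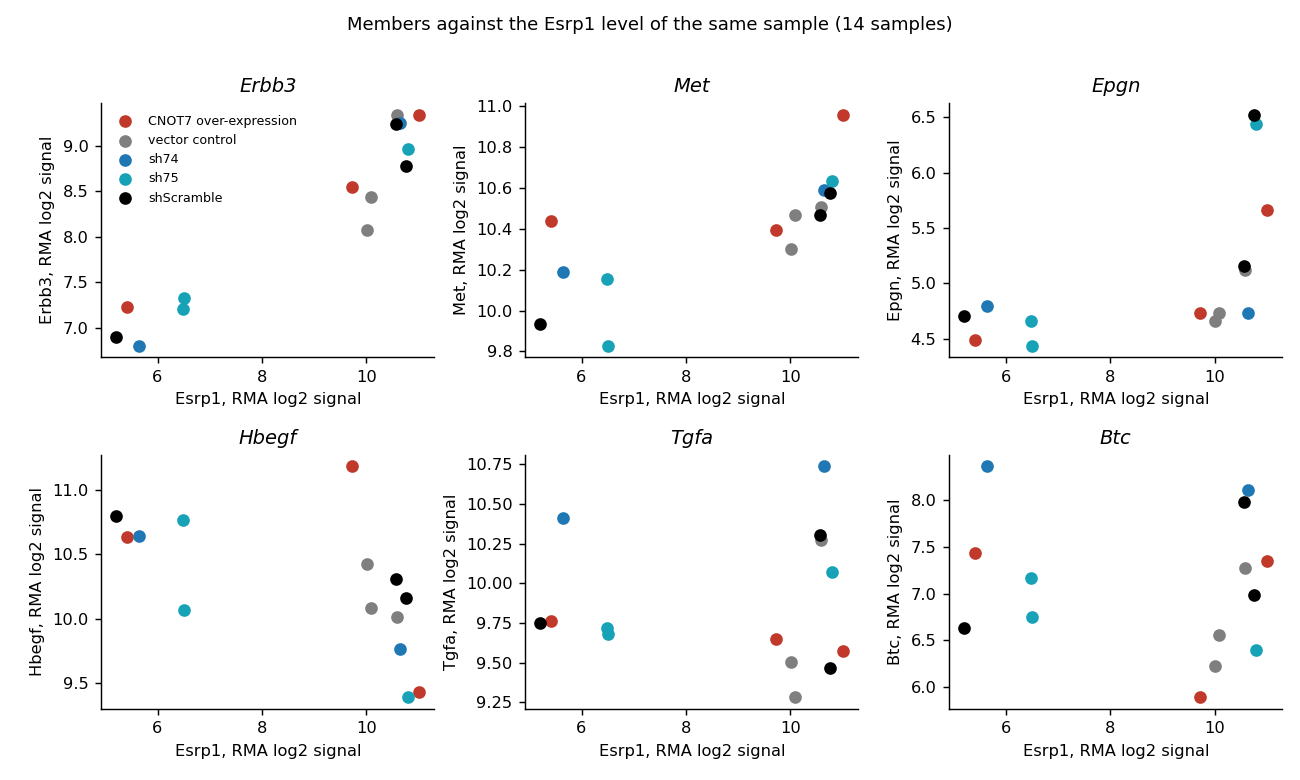
RMA log2 signal of 6 genes against the Esrp1 signal of the same sample, coloured by treatment group (14 samples). Erbb3 lies at 6.80 to 7.32 in the samples with Esrp1 up to 6.50 and at 8.07 or above in the rest, whereas Tgfa and Btc are highest in the sh74 samples on both sides of the Esrp1 gap.

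Met, the hepatocyte growth factor receptor, was the other gene called with Esrp1. It had 10.96, 10.39 and 10.44 in over-expression samples, against 10.47, 10.51 and 10.30 in vector control samples. It had 10.19 and 10.59 with sh74 and 10.64, 9.83 and 10.15 with sh75, against 10.58, 10.47 and 9.93 with shScramble. The lowest values, 9.83 and 9.93, both came from samples with low Esrp1, and the highest from the sample with the highest Esrp1. The slope was 0.10 per log2 unit of Esrp1 (SE 0.02, adjusted p = 0.0360 in limma). Samples on either side of the Esrp1 gap overlapped, at 9.83 to 10.44 and 10.30 to 10.96. The slope stayed between 0.09 and 0.12 in the 14 fits that left out a sample. The call held in 5 of them and was lost, at adjusted p from 0.0504 to 0.137, without vector control replicate 3, over-expression replicate 1, either sh74 sample, sh75 replicate 1 or 2, or any one shScramble sample.

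Counted together, 2 of 9 genes were called with Esrp1, both with a positive slope, and 2.57% of all probe sets were called. An unadjusted p under 0.05 was reached by 5 of 9, against 17.3%. With Vim 0 of 9 were called (0.207% of all probe sets), and 3 of 9 had an unadjusted p under 0.05 (15.2%): Erbb3, Met (slope -0.21, SE 0.05, adjusted p = 0.104) and Hbegf. Vim itself was higher where Esrp1 was lower, at 12.72 to 13.06 in the 5 Esrp1-low samples and 10.08 to 12.71 in the others.

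**Figure D4:**
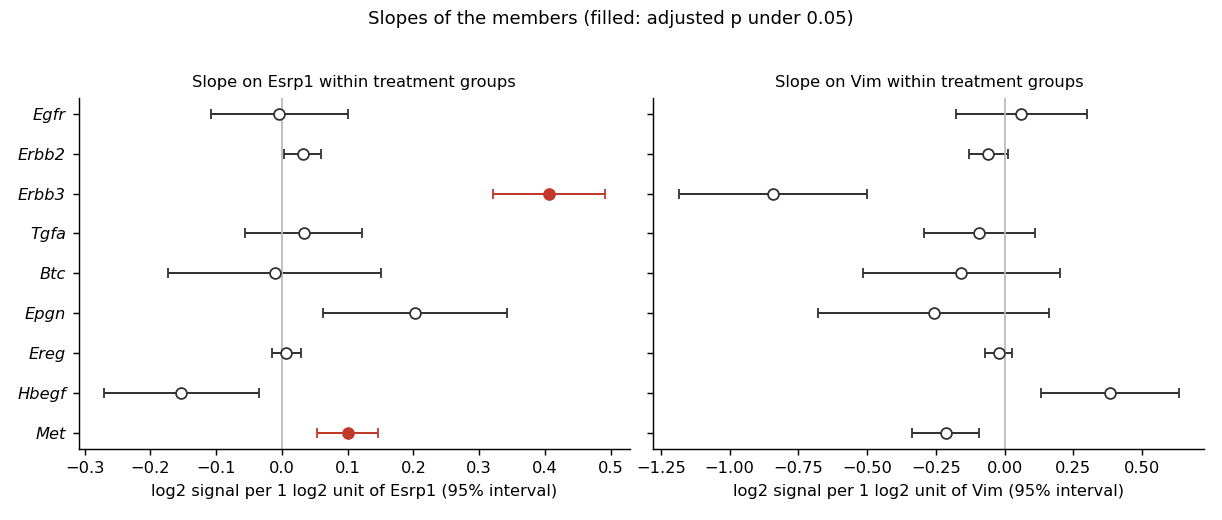
Slope of 9 genes on the Esrp1 signal and on the Vim signal of the sample, from limma fits with treatment groups as terms; bars are 95% intervals and filled points have an adjusted p under 0.05. Erbb3 (0.41) and Met (0.10) are the filled points on the Esrp1 side, none is filled on the Vim side, and Hbegf points the other way from Erbb3 and Met on both.

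Hbegf, the heparin-binding ligand of Egfr, had the opposite sign. It had 9.43, 11.18 and 10.64 in over-expression samples, against 10.09, 10.02 and 10.43 in vector control samples. It had 10.64 and 9.77 with sh74 and 9.39, 10.07 and 10.76 with sh75, against 10.16, 10.31 and 10.79 with shScramble. The Esrp1 slope was -0.15 (SE 0.05, adjusted p = 0.160) and the Vim slope 0.38 (SE 0.11, adjusted p = 0.140), and neither passed. The Esrp1 slope passed in 1 of 14 fits, the one without over-expression replicate 2 (-0.18, adjusted p = 0.0219), which is the sample with the highest Hbegf although its Esrp1 is high.

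Epgn was above the dim limit in 0 of the 5 Esrp1-low samples and in 5 of the 9 Esrp1-high samples. Its signals above the limit were 5.66 in over-expression replicate 1, 5.12 in vector control replicate 2, 6.44 in sh75 replicate 1, and 6.52 and 5.16 in shScramble replicates 1 and 2. The other 9 samples were at 4.44 to 4.79. Those 5 samples came from 4 of the 5 groups, and neither sh74 sample was among them (4.79 and 4.73). The Esrp1 slope was 0.20 (SE 0.06, adjusted p = 0.116), and it was called in 0 of 14 fits that left out a sample.

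Tgfa and Btc, which encode the Egfr ligands transforming growth factor alpha and betacellulin, were highest in the sh74 samples. Tgfa had 10.41 and 10.74 with sh74 and 10.07, 9.68 and 9.72 with sh75, against 9.47, 10.31 and 9.75 with shScramble. It had 9.57, 9.65 and 9.76 with over-expression, against 9.28, 10.27 and 9.50 in vector control samples. Both sh74 samples were above the other 12 samples. The difference between sh74 and shScramble was 0.73 (SE 0.29, 95% interval 0.10 to 1.36, adjusted p = 0.633 in limma), and between sh74 and sh75 it was 0.75 (SE 0.29, adjusted p = 0.459).

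Btc had 8.37 and 8.12 with sh74 and 6.40, 6.75 and 7.17 with sh75, against 6.98, 7.99 and 6.63 with shScramble. It had 7.35, 5.89 and 7.43 with over-expression, against 6.56, 7.28 and 6.22 in vector control samples. As for Tgfa, both sh74 samples were above the other 12, although shScramble replicate 2 came close to the lower one. The share of all probe sets with sh74 above the other 12 was not counted, so the order is only described. With 2 sh74 samples, 22% of all probe sets did not overlap between sh74 and shScramble, and 22.5% between sh74 and sh75. The difference between sh74 and shScramble was 1.04 (SE 0.51, 95% interval -0.08 to 2.16, adjusted p = 0.711), and between sh74 and sh75 it was 1.47 (SE 0.51, adjusted p = 0.400). The 2 sh74 samples lie on opposite sides of the Esrp1 gap (5.65 and 10.65). The slopes on Esrp1 were 0.03 (SE 0.04) for Tgfa and -0.01 (SE 0.07) for Btc, and the 95% intervals were -0.06 to 0.12 and -0.17 to 0.15. Across the 14 samples the Pearson correlation of Tgfa with Btc was 0.71, given as a description over samples that share groups.

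Egfr and Erbb2, the receptors that pair with Erbb3, were called neither with a treatment nor with Esrp1 or Vim. Egfr had 5.55, 6.96 and 6.63 in over-expression samples, against 6.23, 6.16 and 6.15 in vector control samples. It had 5.53 and 6.12 with sh74 and 6.09, 6.17 and 6.32 with sh75, against 6.55, 6.16 and 6.12 with shScramble. The over-expression samples held the 2 highest values of the series and 1 of the 2 lowest, a spread (SD 0.73) that the vector control samples (SD 0.05) did not have. The change was 0.20 (SE 0.29) with over-expression, -0.45 (SE 0.33, adjusted p = 0.841) with sh74, whose samples did not overlap those of shScramble although the nearest both round to 6.12, and -0.08 (SE 0.29) with sh75. The Esrp1 slope was -0.00 (SE 0.05).

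Erbb2 was the steadiest of the genes above the dim limit, within 0.44 units over all samples. It had 8.42 and 8.72 with sh74 and 8.79, 8.59 and 8.55 with sh75, against 8.40, 8.43 and 8.39 with shScramble. All sh75 samples were above all shScramble samples, by a mean of 0.24 (SE 0.10, 95% interval 0.02 to 0.46, adjusted p = 0.565 in limma). Both sh75 and shScramble held samples whose titles carry the numbers 4 and 5 before the point, whose meaning the labels do not give. Number 4 held 1 sample of each group, both Esrp1-high, and number 5 held 2 of sh75 and 1 of shScramble, all Esrp1-low. Within these numbers the Erbb2 difference was 0.37 and 0.18, given without a test. The Hbegf difference was -0.91 and -0.38, that of Met 0.17 and 0.06 against -0.12 over all samples, and that of Erbb3 -0.28 and 0.37. Tgfa had -0.23 and -0.05, Egfr -0.07 and 0.12, Btc -1.59 and 0.33, and Epgn 1.28 and -0.16. No other pair of groups compared with its control shares such a number. Over both hairpins the Erbb2 change was 0.20 (SE 0.09, adjusted p = 0.674). Erbb2 had 8.61, 8.54 and 8.48 in over-expression samples, against 8.35, 8.65 and 8.45 in vector control samples, which overlapped. Its Esrp1 slope was 0.03 (SE 0.01, adjusted p = 0.226).

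The promoters of the genes are shown for 1 motif, CAGGTG, an E-box bound by the Zeb and Snail repressors of epithelial genes and by other factors. RefSeq promoters of 300 bases (250 before the start and 50 after it, build GRCm38.p6) were matched for 6 of the genes, searched on both strands. The motif was found once each in Met, Epgn, Tgfa and Btc and in neither Egfr nor Erbb2, and 20.2% of 32851 promoters held it. Erbb3, Ereg and Hbegf were not searched. The windows of 30 bases below are read 5′ to 3′ on the strand of the gene, with the motif in capitals. They are shown for Met, which was called with Esrp1, and for the ligand genes Epgn, Tgfa and Btc, which were not.
Met: cggcccgggccgCAGGTGacccggacggcc
Epgn: gcccaCAGGTGacaggaaacctgtgtttca
Tgfa: aagcccctagcaCAGGTGactggatcctga
Btc: gaaatgaaccgtCAGGTGagacccagcagg
The windows lie at chr6:17463970-17463999 (plus strand) for Met, chr5:91027267-91027296 (plus strand) for Epgn, chr6:86195013-86195042 (plus strand) for Tgfa and chr5:91403087-91403116 (minus strand) for Btc. With the start in each promoter record counted as base 1, the motif begins at base 26 in Met. In Epgn, Tgfa and Btc it begins 245, 197 and 110 bases before the start. That start need not be the only one: the gene records of Met and Tgfa begin before it, at chr6:17463349 and chr6:86195038. A match is a description of the letters, and binding was not measured.

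Genes with the most similar profile over the 14 samples were listed for each gene whose mean was above the dim limit, as a description without a test. Erbb3 ran closest with Stambpl1 (Pearson r 0.96), the E-cadherin gene Cdh1 (0.96) and Esrp1 (0.95), values that carry the same gap between samples. Met ran with Ttc9c (0.95), Ubd (0.89) and N4bp3 (0.88), of which Ubd had a mean under the dim limit. Hbegf ran with Pvr (0.89), a nectin-like adhesion protein, the tubulin gene Tubb6 (0.88) and Nes (0.88), which encodes the intermediate filament protein nestin. Tgfa ran with Ksr1 (0.93), a scaffold of the MAPK cascade, Upf2 (0.90) and Alms1 (0.90). Btc ran with Chic2 (0.87), Adamtsl4 (0.87) and Rab7 (0.87), and Epgn with Tpm2 (0.91), Pax8 (0.90) and Mir465 (0.89), the last with a mean under the dim limit. Egfr ran with Lrrc32 (0.88), Tox4 (0.84) and Clpb (0.84), and Erbb2 with Slc25a35 (0.88), Sertad3 (0.86) and Ccnjl (0.85). Between the members, Erbb3 and Met had a correlation of 0.80 and Erbb3 and Hbegf one of -0.62, values that carry the gap too. Epgn and Btc, both on chromosome 5, had -0.07, with Epgn under the dim limit in 9 of the samples.

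The neuregulins, of which Nrg1 and Nrg2 bind Erbb3, and Egf and Erbb4 were followed in a list of 6 genes. Nrg1 (6.85 to 7.92), Nrg2 (6.98 to 7.55) and Egf (5.13 to 5.41) were above the dim limit in every sample, and Erbb4, Nrg3 and Nrg4 in none. The immune marker Cd3e (5.68 to 6.04) and the adipocyte marker Plin1 (5.47 to 5.82) also passed it, so passing it need not mean that Egf is expressed. Limma called 0 of 6 in every comparison. Of all probe sets it called 0% to 0.174% in the treatment comparisons, 2.57% with Esrp1 and 0.207% with Vim. Nrg1 had group means of 7.57 with sh74 and 6.96 with sh75, against 7.34 with shScramble, and its change with sh75 was -0.38 (SE 0.18, adjusted p = 0.635). Erbb4 stayed under the dim limit at 4.17 to 4.50. Hgf, the Met ligand, was at 4.04 to 4.28 in all samples, under the limit too. Of 10 genes around Met and its ligand, limma called 1 with Esrp1 (2.57% of all probe sets) and 0 in the treatment comparisons (0% to 0.174%). It was St14, which encodes matriptase, a protease of epithelial cells that activates the growth factor, with a slope of 0.20 (SE 0.03, adjusted p = 0.0121). St14 kept its call in all 14 fits that left out a sample.

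Of 11 genes of ligand shedding, 10 were measured. Limma called 3 with Esrp1 (2.57% of all probe sets), 1 with a positive and 2 with a negative slope. In the treatment comparisons it called 0 (0% to 0.174% of all probe sets). Adam12, a metalloprotease that can release Hbegf, had a slope of 0.32 (SE 0.05, adjusted p = 0.0189), with 5.35 and 7.63 in the 2 sh74 samples. Adam19, a metalloprotease that can cleave neuregulins, had one of -0.29 (SE 0.05, adjusted p = 0.0223). Adam10, the protease that releases betacellulin, had one of -0.08 (SE 0.02, adjusted p = 0.0307), and without group terms its adjusted p was 0.595. Adam10 also had 9.18, 9.85 and 9.55 with sh75, against 10.11, 10.15 and 10.44 with shScramble, a change of -0.71 (SE 0.19, adjusted p = 0.322) that was not called. All 3 calls were lost without either sh74 sample or without sh75 replicate 1. The Adam12 call was also lost without shScramble replicate 3, the Adam19 call without over-expression replicate 3, and the Adam10 call without over-expression replicate 1 or any one shScramble sample. The highest adjusted p in those fits was 0.0679 for Adam12, 0.0778 for Adam19 and 0.107 for Adam10.

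Downstream of the receptors, 20 of 25 adaptors and effectors were measured. Limma called 2 with Esrp1 (2.57% of all probe sets), both with negative slopes, and 0 in the treatment comparisons (0% to 0.174%). Pik3ca, a catalytic subunit of PI3K, had a slope of -0.11 (SE 0.02, adjusted p = 0.0362), and the kinase gene Akt2 one of -0.05 (SE 0.01, adjusted p = 0.0317). Both calls were lost, with adjusted p up to 0.110 for Pik3ca and 0.102 for Akt2, without either sh74 sample, sh75 replicate 1 or 2, shScramble replicate 2 or 3, or over-expression replicate 1. The Pik3ca call was also lost without vector control replicate 3, and the Akt2 call without over-expression replicate 3.

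Of 15 negative regulators of these receptors, all were measured and limma called 1 between the hairpins (0.174% of all probe sets) and 0 with Esrp1 (2.57%). Cbl, a ubiquitin ligase that marks Egfr and Met for degradation, had 9.99 and 9.77 with sh74, against 8.90, 9.03 and 9.10 with sh75. The difference was 0.87 (SE 0.14, adjusted p = 0.0390). The shScramble samples lay between, at 9.37, 9.66 and 9.57. Against shScramble, Cbl changed by 0.35 with sh74 (SE 0.14, adjusted p = 0.639) and by -0.53 with sh75 (SE 0.12, adjusted p = 0.227), so neither hairpin was called alone. The call between hairpins was lost in all 5 fits that left out 1 of their samples, at adjusted p from 0.0627 to 0.215.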

How the data were processed

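Single-color Affymetrix arrays of 14 samples of 4T1 cells were used. The authors processed them by RMA with the R package oligo (versions not given in the sources used here), and the deposited values are log2 signals, used here without further normalization. Of 35556 probe sets, 21789 paired with exactly 1 symbol, 1621 with several and 12146 with none. Names came from the platform annotation, and for 21698 of the single-symbol probe sets the Entrez identifier was found in RefSeq (GRCm38.p6). The annotation's build is not named, so no probe coordinates are given. Fits used limma 3.58.1 in R 4.3.3 (lmFit, eBayes, with 9 residual and 2.09 prior degrees of freedom in the group fit and 8 residual in the Esrp1 fit) with two-sided tests, tested on simulated data first. Slopes came from fits with the groups plus Esrp1 or Vim. The number of arrays, not a depth, limits the precision.

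The members and gene lists were chosen with earlier results of these data known. Besides the members, Cnot7, Esrp1 and Vim, the text names the called genes of each pathway list, or otherwise the 2 with the smallest p against shScramble or vector control, and the 3 genes closest in profile. Other genes in the text, such as Cldn7, Hgf and Nrg2, were named after their values were seen. The alternatives were the compared groups alone, the methods' t-test, trended and robust moderation, no dim probe sets, median centering, quantile normalization, the title number as a random block, Esrp1 or Vim as covariate, slopes without group terms, and leaving out each sample.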

Additional observations from a re-analysis of the deposited data

Results flagged for a closer look

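Cbl is listed because its difference between the 2 hairpins, tested directly, passed the threshold: 0.87 log2 units higher with sh74 than with sh75 (SE 0.14, limma adjusted p = 0.0390). No member differed between the hairpins, or between the over-expression change and the knockdown change, at that threshold. The groups hold 2 or 3 samples, too few for a test of single outlying samples.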

How the results depend on the processing

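The counts of called members stayed at 0 in all 7 treatment comparisons under every alternative that was run. With Esrp1 the count was 2, and it was 1 to 3 when samples were left out 1 at a time; with Vim it was 0, and it was 1 without dim probe sets, 1 without group terms, and 0 to 1 when samples were left out. The Erbb3 change with over-expression was 0.37 with Esrp1 as a covariate, and the sh74 change was 0.0022. With Vim as a covariate, the sh75 change was 0.34 and that of both hairpins 0.0243. Leaving out samples gave Erbb3 changes of -0.73 to 0.33 with over-expression, -1.50 to 0.94 with sh74 and -1.08 to 0.23 with both hairpins. With sh75 the range was -1.18 to -0.005, which did not change sign. Of 63 member changes and slopes that are not given 1 by 1 above, 35 changed sign under at least 1 alternative and 0 were called under any. The title number as a random block was run for the treatment comparisons only, with a consensus correlation of 0.05, and no member was called there. The slopes on Esrp1 and Vim were not fitted with it, so the Erbb3 and Met calls were not tried under it. No fit with the number as a fixed pairing was run, because the labels do not say that it pairs samples. No member had another single-symbol probe set to try. Erbb2 also had 1 probe set shared with another gene, which was not used. The Cbl call between hairpins was lost with only those groups in the fit (adjusted p = 0.287), with the methods' t-test (adjusted p = 0.995) and with trended and robust moderation (adjusted p = 0.0560). The Akt2 call was lost with that moderation (adjusted p = 0.0700) and with median centering (adjusted p = 0.0506). The number of arrays limits what could be detected: the 95% interval of the Erbb3 change with sh74 ran from -2.29 to 1.73. Counts over all probe sets varied more, with samples left out 1 at a time: 1 to 122 with sh74 (2 with all samples), 6 to 22 with sh75 (20), 0 to 89 with both hairpins (4), 14 to 53 between the hairpins (38), 73 to 863 with Esrp1 (560) and 0 to 265 with Vim (45).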
